A study of Glycine max with 4 samples.

Results

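Soybean line P06 was set against its sister line P05 by array comparative genomic hybridization (aCGH), with plants 35 and 45 of P06 and plants 15 and 39 of P05. These 4 arrays, chosen by the line named in their labels, are 4 of the 4 arrays of the series. The label of P06 carries the ending of one of the names the study uses for FN0176450, its high-sucrose/low-oil mutant, and P05 carries another plant number of that fast neutron family. The study describes more replicate hybridizations of FN0176450 in this series than the 2 arrays labeled P06, without naming their plants. At least 1 array labeled P05 would therefore be among them. The study saw a deletion at its chromosome 8 probe in every replicate hybridization. Here the log2 ratio of that probe was -6.49 in plant 15, as low as in P06, and -0.032 in plant 39. Which P05 plant the study counted was not tested further. The groups here follow the labels, and a wrong label cannot be told apart from a difference between plants of a line. Both lines descend from an irradiated wild-type parent, the reference the labels name in Cy5, and were bulk-harvested over several generations, so that plants of 1 line need not be identical. Leaf DNA of each plant was labeled with Cy3 and hybridized together with Cy5-labeled DNA of that parent, so the ratios of all 4 plants share this reference. Age and any further treatment of the plants are not stated, the seed composition of P05 is not given in the sources used here, and no array had the dyes swapped.

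Fast neutrons break both strands of DNA, and faulty rejoining of the ends leaves deletions, inversions and translocations. A sequence that is lost on both chromosome copies gives no mutant signal, and its probe keeps only background in Cy3, whereas a sequence lost on 1 of the copies keeps a weaker signal. Plants that come from 1 irradiated ancestor share those of its lesions that both inherited, and lesions still heterozygous in the ancestor can become fixed in one descendant and be lost from another. A translocation moves sequence without removing it, so aCGH sees it only where bases at the breakpoint are missing or changed.

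The array held 951615 probes over 20 chromosomes, placed on the genome build Glyma.Wm82.a2.v1. Probes were 60 bp long and 474 bp apart at the median, and its design favored genic regions. Each value is the log2 ratio of mutant over wild-type signal, centered on the median of the array, and the line difference of a probe is the mean of the 2 P06 plants minus the mean of the 2 P05 plants. Cy3 was well above background at 98.7 to 99.2% of the probe spots. A dye bias of a probe that is the same on all arrays cancels in the line difference, as does anything else that all arrays share. The robust SD over all probes was 0.195 and 0.224 for the ratios of the P06 plants and 0.184 and 0.202 for those of the P05 plants. For the line difference it was 0.103, and without a dye swap the part of dye bias in this drop cannot be told apart. Whether plants were grown or extracted together is not stated, so the spread between them may also hold technical variation, and with so few arrays every mean is imprecise.

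P06 differed from P05 mainly by sequence that was low in P06 and present in P05 on chromosome 7. By limma's treat test against a log2 difference of 1 (adjusted p under 0.05, Benjamini-Hochberg over 951298 probes), 732 probes were lower in P06 than in P05, which is 0.0769% of the probes tested. Higher in P06 were 2 probes, or 0.00021%. Of the lower probes, 728 were called probes of 1 chromosome 7 locus and 2 more lay elsewhere on chromosome 7, with 1 each on chromosomes 2 and 3. With plant 15 left out, 1451 lower and 454 higher probes were called, so the counts depend on which plants stand for P05, and the lone P05 plant is then assumed to vary like P06. At an unadjusted p under 0.05, treat counted 877 lower probes, or 0.0922%, and 26 higher ones, or 0.00273%.

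An interval search on the line difference found 12 loci with a mean difference of at least 1 in size, with 1772 called probes, or 0.186% of all probes. The plants of each line agreed at 2 of these loci, with 840 called probes, meaning that the mean ratios of the plants of a line differed by less than 1. At the other 10 loci, with 932 called probes, the P06 plants agreed and the P05 plants did not. Treat divides by the spread between plants of a line, by which the loci were sorted, so its 729 calls at the 2 loci of agreement and 0 calls at the other 10, where 10 probes had an unadjusted p under 0.05, follow from the sorting and are no test of it.

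**Figure D1:**
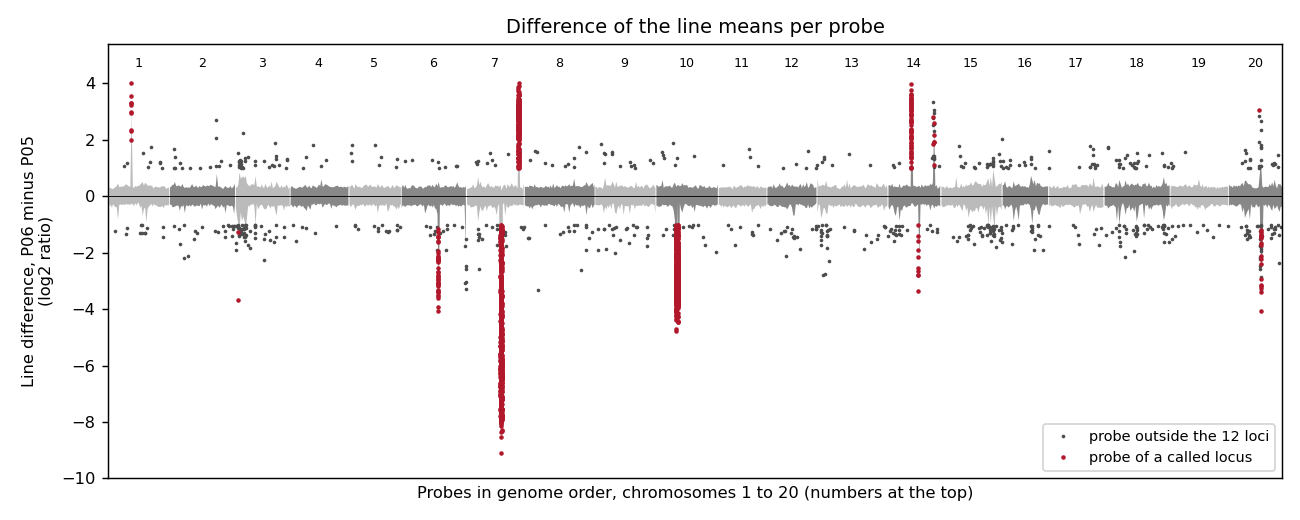
Difference of the line means (P06 minus P05, log2 ratio) along the probes in genome order over chromosomes 1 to 20. Dots are probes with a difference of at least 1 in size, red where they are called probes of the 12 loci, and the gray band holds the central 99% of the probes of each bin. Only the chromosome 7 locus reaches below -5, and the loci above 0 are those that were low in plant 39 of P05.

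The chromosome 7 locus ran from 25564698 to 29366100, over 3801 kb, with 837 called probes among the 998 probes in the span. Over its called probes plant 35 of P06 had a mean log2 ratio of -4.80 and plant 45 one of -4.85, against 0.0046 in plant 15 and -0.032 in plant 39 of P05. Plants of 1 line lay within 0.05 of each other and the lines did not overlap: the line means were -4.83 ± 0.035 in P06 and -0.014 ± 0.026 in P05 (SD, n = 2 plants each), a line difference of -4.81. With the normexp background correction, which here adds an offset of 50 to each signal, in place of the processed signals the difference was -2.31. The size of the difference thus depends on the processing. Normexp changed the signals used, the background correction and the offset together, and their parts were not tested apart. With 2 plants against 2, the exact permutation test of this mean gave p = 0.333 (two-sided), the smallest it allows, and treat called 728 of the 837 probes, or 87.0%. The called probes were picked by this same line difference, so both values describe the locus and are no separate test of it. The difference arose in the mutant channel. The median Cy3 signal of these probes was 22.3 and 22.5 in P06, against 1095 and 1101 in P05, while the median Cy5 signal of the wild-type parent lay between 1114 and 1140 on all 4 arrays. Cy3 was not well above background at 63.6 and 63.2% of the called probes in P06, against 0.239 and 0.478% in P05.

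Probe by probe, both P06 plants lay at least 1 below both P05 plants at 781 of the 837 probes, against 877 probes, or 0.0922%, in the whole genome. This measure is that by which the locus was found and is given as a description. In plant 35, 717 of the 837 probes stood at -2 or lower and 455 at -5 or lower, and in plant 45 the counts were 718 and 470. No called probe stood below -1 in either P05 plant, where the lowest ratios were -0.83 in plant 15 and -0.95 in plant 39. Some called probes were not low in P06: 36 were above -1 in both plants and 6 in 1 of them. The median Cy5 signal of those 36 was 3288, against 1106 at the other called probes.

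**Figure D2:**
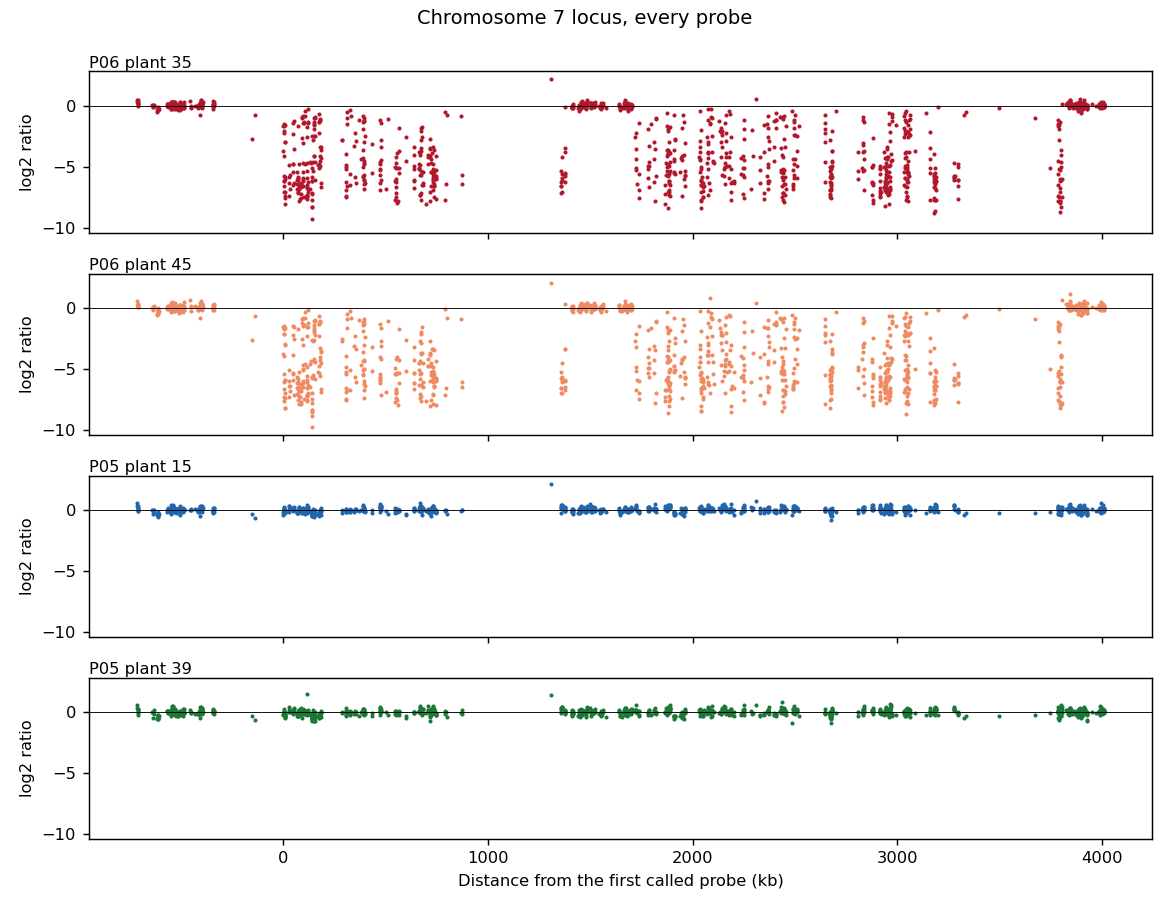
Log2 ratio (mutant over wild type) of every probe of the chromosome 7 locus and of 150 probes on either side, by distance from the first called probe in kb, with plants 35 and 45 of P06 above plants 15 and 39 of P05. Both P06 plants are low in the same blocks and return to 0 over the same stretch within the locus, and both P05 plants stay near 0 throughout.

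The locus was not 1 unbroken block. Both P06 plants were low in a first block from 25564698 to 26943434, with 317 probes over 1379 kb and means of -4.82 and -4.90 in P06, against -0.033 and -0.068 in P05. A retained stretch of 141 probes followed, from 26943763 to 27269203, with means of 0.0054 and 0.023 in P06, against -0.0072 and -0.038 in P05. The second block, from 27285755 to 28861970, held 488 probes over 1576 kb, with means of -4.76 and -4.79 in P06, against 0.033 and -0.0048 in P05. A further block of 32 probes, from 29311248 to 29366100, stood at -5.30 and -5.23 in P06, against -0.056 and -0.088 in P05. Between these last blocks lay 4 probes over 346 kb, at -0.62 in each P06 plant and at -0.30 and -0.37 in P05, so the array says little about that stretch.

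The edges of the retained stretch were resolved unequally. On its left, the last low probe ended at 26943434, at -3.79 and -3.40 in P06, against -0.12 and -0.087 in P05. The next probe began at 26943763, with 328 bp between them, at -0.096 and 0.34 in P06, against 0.20 and 0.071 in P05. On its right, 16551 bp without a probe separated the last retained probe, at -0.082 and -0.14 in P06, from the first low one, at -2.59 and -2.76 in P06. At the right end of the whole locus the last called probe stood at -7.43 and -7.82 in P06, against 0.011 and -0.14 in P05, and the next probe, 2089 bp further on, at 0.18 and 0.63 in P06, against 0.16 and 0.40 in P05. The left end was less sharp. The nearest uncalled probe, 137052 bp away, stood at -0.76 and -0.71 in P06 and at -0.67 and -0.69 in P05, and the probe before it, Gm_CUST_P11106824 at 25414458 to 25414509, at -2.68 and -2.66 in P06, against -0.33 and -0.35 in P05. That single probe lay 150 kb before the first called one, and it was singled out after its values were seen.

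The 3 probes with the largest line difference all lay in this locus. Gm_CUST_P11107227, at 25706630 to 25706682 of chromosome 7, had a log2 ratio of -9.25 and -9.78 in P06, against -0.29 and -0.52 in P05. Its Cy3 signal was 14.2 and 10.2 in P06, not well above background, against 5760 and 5731 in P05. With the lowest signal that was well above background on each P06 array in place of the probe's own, Cy3 was at least 162-fold lower in P06 than in P05, and the line difference was -9.11 with a standard error of 0.173 (limma treat, adjusted p = 2.87e-06). The other two, Gm_CUST_P11108882 at 27444927 to 27444986 and Gm_CUST_P11109080 at 27607618 to 27607672, had line differences of -8.54 and -8.37 and were at least 72.4-fold and 81.2-fold lower in P06.

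The second locus of agreement was small and dim. On chromosome 3, from 1829858 to 1834621, 3 probes had means of -1.21 and -1.71 in P06, against 0.64 and -0.24 in P05. The lines did not overlap, but the P05 plants differed by nearly 1. Treat called 1 of the 3 probes, the first, which stood at -3.96 and -4.00 in P06, against -0.23 and -0.35 in P05. Neither dye gave much signal at these probes, and 66.7% of them were not well above background in Cy3 and in Cy5 on every array.

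**Figure D3:**
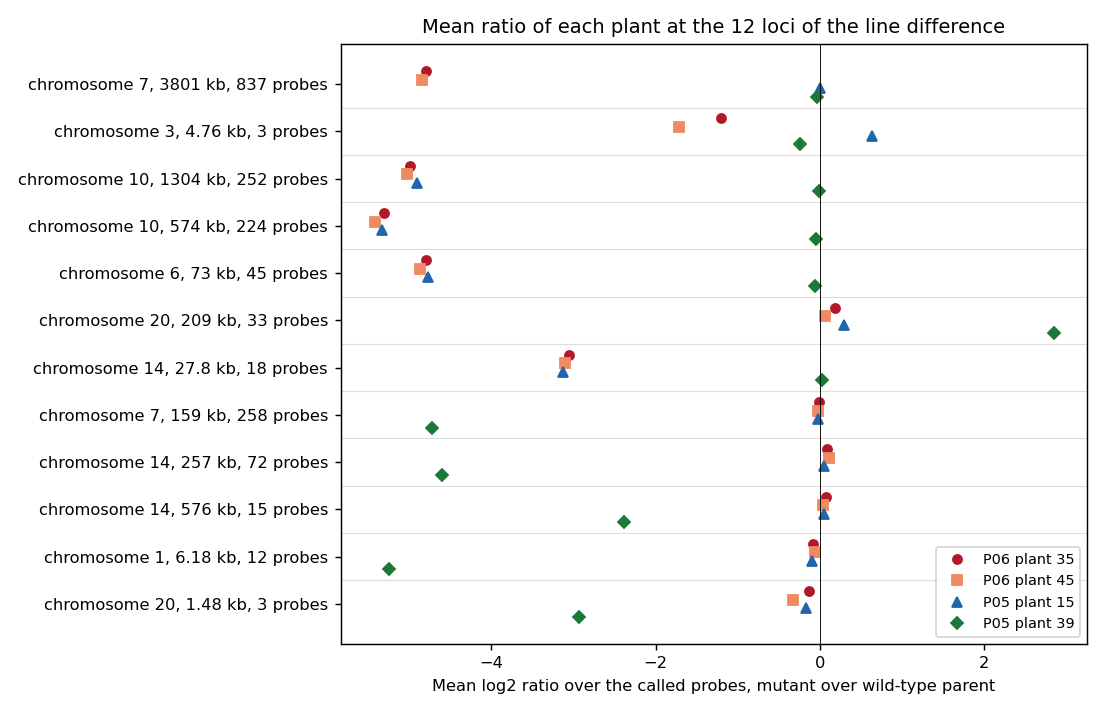
Mean log2 ratio (mutant over wild type) over the called probes of each of the 12 loci, with 1 symbol per plant and each locus named by chromosome, span and number of called probes. At the top 2 loci both P06 plants lie below both P05 plants, and at the other 10 plant 15 of P05 lies with the P06 plants and plant 39 alone stands apart.

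At 4 of the loci where the P05 plants disagreed, with 539 called probes over 1979 kb, plant 15 was as low as both P06 plants and plant 39 stood near 0. The 2 widest were on chromosome 10. From 19986042 to 21290005, over 252 called probes, the means were -4.99 and -5.03 in P06, against -4.91 in plant 15 and -0.012 in plant 39 of P05. From 14796450 to 15370810, over 224 called probes, they were -5.31 and -5.42 in P06, against -5.33 in plant 15 and -0.047 in plant 39. The line differences of -2.55 and -2.68 therefore average a P05 plant that matched P06 with one that did not. The 3 probes with the largest line difference among these loci, Gm_CUST_P11597960, Gm_CUST_P11597978 and Gm_CUST_P11604987, all lay on chromosome 10, with differences of -4.79, -4.69 and -4.46 and an adjusted p of 1 for each (limma treat).

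The remaining 2 of these 4 loci were shorter. On chromosome 6, from 18128869 to 18201820, 45 called probes had means of -4.80 and -4.88 in P06, against -4.78 in plant 15 and -0.054 in plant 39 of P05. On chromosome 14, from 26774074 to 26801907, 18 probes had means of -3.05 and -3.10 in P06, against -3.13 in plant 15 and 0.031 in plant 39. The chromosome 14 locus was shallower: 11 and 12 of its 18 probes stood at -2 or lower in P06, against 12 in plant 15 and 0 in plant 39. On chromosome 6, 42 of the 45 probes did so in each of plants 35, 45 and 15.

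The ends of these 4 loci were the same in plant 15 and in both P06 plants at the resolution of the probes. Searched pair by pair, each of plants 35, 45 and 15 against plant 39, every one of the 4 loci began and ended at the same probe in all 3 pairs, with plant 39 shared by the pairs. On chromosome 10, the gap from 20290750 to 20495097 within the wider locus was also common: its 4 uncalled probes had means of -1.04 and -1.02 in P06, against -1.10 in plant 15 and -0.31 in plant 39. Neighboring probes bounded the loci within 2619 and 30196 bp, and within 9802 and 69147 bp, on chromosome 10, within 50650 and 4232 bp on chromosome 6, and within 67843 and 6171 bp on chromosome 14.

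At 5 further loci plant 39 alone was low, so that the line difference was positive although P06 matched the wild-type parent. They held 360 called probes over 1000.1 kb. The one with most probes lay on chromosome 7, from 42193750 to 42352938, farther along than the P06 locus, and its 258 called probes had means of -0.013 and -0.025 in P06, against -0.020 in plant 15 and -4.72 in plant 39 of P05. On chromosome 14, from 14337661 to 14594509, the 72 called probes had means of 0.086 and 0.11 in P06, against 0.054 in plant 15 and -4.60 in plant 39. On chromosome 1, from 25162702 to 25168882, the 12 probes had means of -0.086 and -0.055 in P06, against -0.094 in plant 15 and -5.25 in plant 39. In all 3 the 2 P06 plants and plant 15 lay within 0.1 of each other. The smallest of the 5, on chromosome 20, had 3 probes and a mean of -2.93 in plant 39. Only 1 of these probes stood at -2 or lower in plant 39, at -6.17, and 1 stood above -1, so that mean rests largely on 1 probe.

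Near the end of chromosome 14, from 45178835 to 45755249, the pattern was scattered rather than a block. Of 927 probes there, 15 were called, with means of 0.082 and 0.036 in P06, against 0.050 in plant 15 and -2.38 in plant 39 of P05. Over the whole stretch plant 39 stood 2 or more below every other plant at 17 probes and 2 or more above every other plant at 0, and the means over all 927 probes were 0.037 and 0.017 in P06, against 0.035 in plant 15 and -0.13 in plant 39.

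On chromosome 20 single probes of plant 39 went both ways. From 37680887 to 37890351, the 33 called probes had means of 0.19 and 0.063 in P06, against 0.29 in plant 15 and 2.85 in plant 39 of P05, and the median Cy3 signal was 237 and 214 in P06, against 211 in plant 15 and 1689 in plant 39. Between 36723392 and 37890351, which takes in both chromosome 20 loci, plant 39 stood 2 or more above every other plant at 33 of 1982 probes and 2 or more below at 10. At 12 of the 33 higher probes none of the arrays had Cy5 well above background, whereas Cy3 of plant 39 was well above background at all 33. A similar stretch at the end of chromosome 6, from 51022085 to 51305571, was not called as a locus and was singled out after the profile was seen: plant 39 stood 2 or more above the others at 7 of its 521 probes, with ratios of 3.07 to 6.94, and 2 or more below at 0.

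Comparing the plants in pairs gave the same division. Plants 35 and 45 of P06 differed by at least 2 at 138 probes, and the interval search found 0 loci between them. Plants 15 and 39 of P05 differed by at least 2 at 1063 probes, with 10 loci and 1002 called probes. Between the lines, plants 35 and 45 each differed from plant 15 at 2 loci, with 841 called probes in each pair, and by at least 2 at 857 and 874 probes. From plant 39 they differed at 11 and 12 loci, with 1831 and 1859 called probes, and by at least 2 at 1743 and 1792 probes. Plant 15 thus differed from each P06 plant at fewer probes than from plant 39 of its own line. The pairs share plants and are not independent, and the difference between these counts was not tested.

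**Figure D4:**
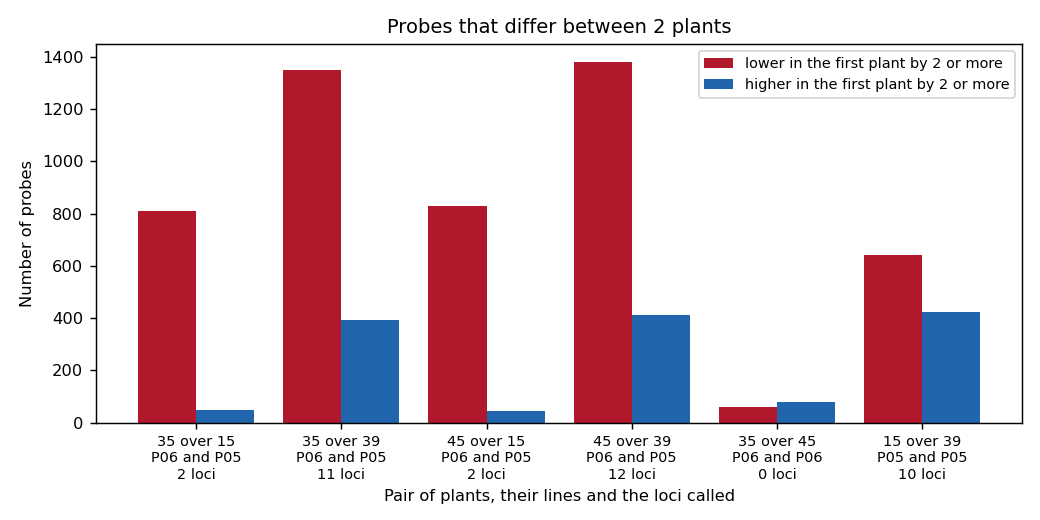
Number of probes that differ by at least 2 on the log2 scale between the 2 plants of each pair, red where the plant named first is lower and blue where it is higher, with the lines of the pair and the number of loci called under each pair. The 2 P06 plants differ least, and both pairs of a P06 plant with plant 39 of P05 differ most.

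Counted over single probes, with -2 as the limit for low, 717 probes were low in both P06 plants and in neither P05 plant, and 715 of them lay on chromosome 7. In both P06 plants and plant 15, 505 probes were low, of which 490 were called probes of the loci above. In plant 39 alone 356 were low, in plant 15 alone 6, and in both P05 plants but no P06 plant 1. The P05 plants thus shared almost no low probes that P06 lacked. Low in all 4 plants were 35 probes. Of these, 18 lay on chromosome 16 between 1240970 and 1740774, with means of -4.20 and -4.31 in P06, against -4.35 and -4.29 in P05. On chromosome 18, 14 lay between 12882767 and 14346484, with means of -5.10 and -5.03 in P06, against -4.90 and -4.74 in P05. The last 3 were on chromosome 6.

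The chromosome 8 probe that the study followed, Gm_CUST_P11209911 at 6358131 to 6358190, belonged to the group shared with plant 15. The study places it within Glyma.08G084300, an ortholog of KASI, the condensing enzyme that elongates acyl chains in plastid fatty acid synthesis. Its log2 ratio was -6.38 and -6.77 in P06, against -6.49 in plant 15 and -0.032 in plant 39 of P05. The line difference was -3.32 with a standard error of 1.78, which was not past the threshold (limma treat, adjusted p = 1). That difference averages a P05 plant that matched P06 with one that did not. The 20 probes around it, from 6353529 to 6364046, had line differences between -0.15 and 0.18, so no neighbor changed with it. In sequencing reads of the mutant, the study found a short deletion within the sequence of this probe, at the breakpoint of a reciprocal translocation. It then showed the translocation by PCR and sequencing of the products. The translocation itself was not tested here. Of the 15 probes low in both P06 plants and plant 15 but outside the called probes, 10 lay within the span of a locus and 5 elsewhere.

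Smaller differences are left out by the limit of 1. With the limit lowered to 0.3, at least 10 probes and intervals joined under 200 kb, a setting chosen after seeing the data, the search gave 14 loci, where the joining distance alone gave 16 at the limit of 1. A stretch of 16 probes from 45373464 to 45387699, inside the scattered chromosome 14 locus, had means of 0.029 and 0.13 in P06, against 0.026 in plant 15 and -1.26 in plant 39 of P05. Outside the loci above, 2 stretches appeared, both on chromosome 7. From 34328909 to 34338745, over 9.84 kb, 14 probes had means of -0.47 and -0.48 in P06, against 0.084 and 0.066 in P05. Both P06 plants were lower than both P05 plants at 11 of the 14 probes, an order that 22.7% of all probes show. The stretch was found by this same difference, so nothing is read from that count. The 40 flanking probes had means of 0.26 and 0.26 in P06, against 0.26 and 0.25 in P05. The median Cy3 signal was 1078 and 1083 in P06, against 1852 and 1906 in P05. Single probes ranged in plant 35 from -1.08 to -0.018, so the stretch was uneven. Treat called 0 of the 14 probes, and eBayes against 0 called 5. The eBayes calls rest on the difference by which the stretch was found, and their share over all probes is not given here. Nothing is read from them. The mean line difference of -0.55 lies within treat's limit of 1 in size, so its count says little about this stretch.

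The other was a difference within P05. From 7263994 to 7281283, over 17.3 kb, 17 probes had means of 0.043 and 0.026 in P06, against -0.88 in plant 15 and 0.029 in plant 39 of P05. Plant 15 was the lowest plant at 17 of 17 probes, with ratios from -1.15 to -0.33, and its median Cy3 signal was 1481, against 2239 and 2323 in P06 and 2574 in plant 39. The stretch was found by a line difference that rests on plant 15. The share of all probes with plant 15 lowest is not given here, so nothing is read from that order. Neither treat nor eBayes called a probe there (0 of 17 each). The line difference of 0.46 lies within treat's limit of 1 in size and rests on plant 15, which widens the spread within P05. These counts therefore say little about the stretch.

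**Figure D5:**
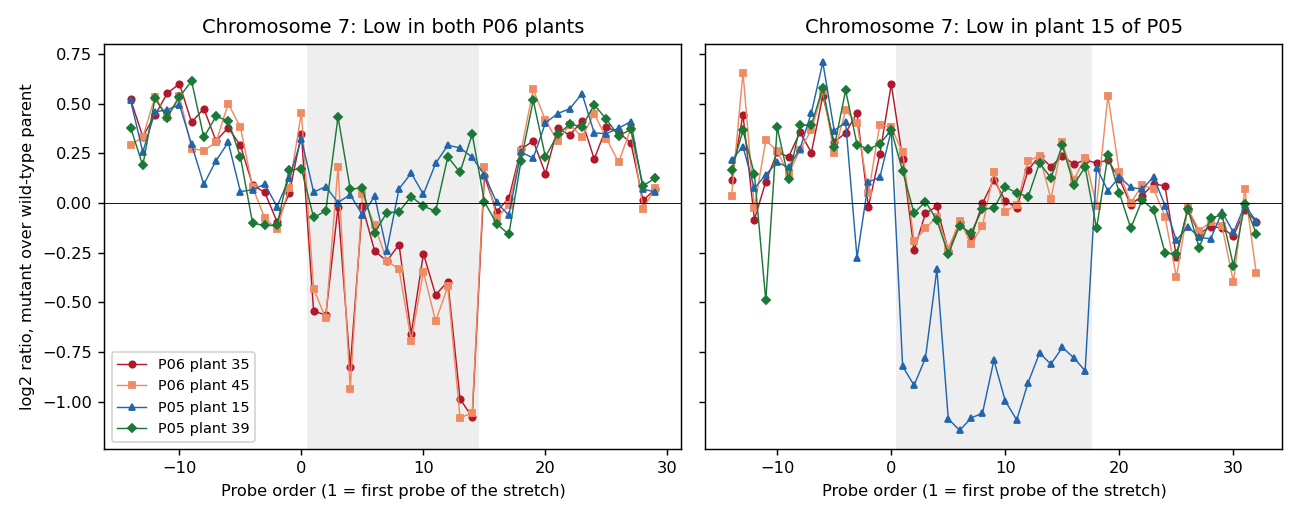
Log2 ratio (mutant over wild type) of each probe in the 2 smaller chromosome 7 stretches, shaded, and of 15 probes on either side, in probe order, with 1 line per plant. On the left both P06 plants fall below both P05 plants at 11 of 14 probes, and on the right plant 15 of P05 alone is low at 17 of 17. Both stretches were found by these same differences, so the counts only describe them.

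Beside the 5 loci that were low in plant 39, the 2 probes that treat called higher in P06 over all 4 arrays were dim. They were Gm_CUST_P11589071 on chromosome 10, at 11835465 to 11835524, with ratios of 0.58 and 0.32 in P06, against -1.47 and -1.43 in P05, and Gm_CUST_P12776846 on chromosome 17, at 35180566 to 35180625, with 1.79 and 1.90 in P06, against 0.15 and 0.17 in P05. Neither dye was well above background at either probe on any array, so these ratios carry no reliable size. More widely, 716 probes outside the loci had a line difference of at least 1 in size, and at 83.5% of them Cy5 was not well above background on at least 1 array, against 1.18% of all probes. The part of this dim signal in those differences was not tested further.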

How the data were processed

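DNA of 4 plants was hybridized against the wild-type parent, 1 plant per array and slide. The authors deposited Feature Extraction 12.0.0.7 output with an intensity per spot and dye, background-subtracted and dye-normalized per the file headers, and a log10 ratio error, deposited as an error score, which weighted the interval search. They also deposited processed log2 ratios, which matched the scanner ratios to within 0.01, apart from a constant, at 99.98% or more of the probes. Each array had 210 to 861 spots marked as non-uniform or outliers, which were dropped before spots of a probe were averaged. The 8054 probes listed on Chr014 were taken as chromosome 14.

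Lines were compared with limma 3.58.1 in R 4.3.3 (lmFit, treat), tested on simulated data. Loci came from a search modeled on ADM-2, the authors' algorithm (score at least 6, 3 to 3000 probes, mean difference at least 1 in size, joined under 1000 kb), in Python 3.11.15. Named were loci of at least 10 called probes, the widest of the smaller loci, low regions shared by all plants, the 3 probes of largest difference per kind of locus and the chromosome 8 probe. Normexp, an alternative, used median signals and an offset of 50. Members and lists were chosen with earlier results of these data known. Gene models of this genome build and probe sequences were not used here. Each slide held 1 array, so no slide batch could be tested.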

Additional observations from a re-analysis of the deposited data

Results flagged for a closer look

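Under the same contrast with the wild-type parent, single probes differed between P06 and P05 by a test of the line difference. By limma's treat over all 4 arrays, 732 probes were lower in P06 than in P05, and of these 728 lay at the chromosome 7 locus, where the mean line difference was -4.81, or -2.31 with normexp. These 728 probes belong to 1 locus picked by the same line difference, so their number is no separate test of it. The exact permutation test of the locus mean over the 4 plants gave p = 0.333 (two-sided), the smallest it allows.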

How the results depend on the processing

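No paired analysis was possible because no plant number occurs in both lines. Over the results and alternatives run, 160 values kept their direction and stayed within the limit set for counts or spread, 19 moved and 1 reversed, and for each change the cause was not tested. The count of probes lower in P06 ran from 751 to 1451 with 1 plant left out. The count of higher probes was 0 with normexp and with dim probes left out, 22 with eBayes, and from 10 to 454 with 1 plant left out. Normexp gave 595 lower probes, against 732 in the main setting, and a line difference of -2.31 at the chromosome 7 locus. Against 12 loci from all plants, 2 were found without plant 39 of P05 and up to 15 with another plant left out. At the loci where the P05 plants disagreed, the spread limit is that disagreement, so values counted as kept still moved widely when 1 plant was left out: from 0.023 to 5.18 on chromosome 1, from -4.78 to -0.063 on chromosome 6, from 0.0011 to 4.70 at chromosome 7 from 42193750, from -5.32 to -0.034 and from -4.999 to -0.10 on chromosome 10, from 0.046 to 4.70 and from 0.0092 to 2.44 on chromosome 14, and from -2.72 to -0.16 on chromosome 20. In each the value near 0 came without plant 39. The chromosome 14 locus from 26774074 ran from -3.11 to 0.050 with 1 plant left out, and its sign changed to 0.050 without plant 39. Whether plants of a line agree is undefined without a P05 plant, so those counts were not recomputed. At a limit of -1 for low, 813 probes were low in plant 39 alone, 13 in both P05 plants alone and 237 in all 4 plants. At a limit of 1 for pairs, the counts were 1507 for plants 35 and 45, 2284 and 2529 for plants 35 and 45 against plant 15, 3998 and 4104 against plant 39, and 3110 for plants 15 and 39. At a limit of 2 they were 138, 857, 874, 1743, 1792 and 1063, in the same order. Most Cy3 signals at deleted probes were not well above background, so their ratios bound the loss from 1 side only.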
